A study of Mus musculus with 16 samples.

Results

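Sat1, Sat2, Paox and Smox encode the enzymes that acetylate the polyamines spermidine and spermine or oxidise them. They were chosen as a named set of 4 genes, matched by symbol to the 32989 gene identifiers of the count table, and all 4 were among the 19049 genes tested. They were followed in hair follicle stem cell (HFSC) organoids grown from the epidermal cells of 4 C57BL/6J mice. After 2 weeks of culture, with or without N1-acetylspermidine (N1-AcSpd) for 72 h, the cells were sorted on integrin α6 and CD34. Each mouse gave 1 library of untreated α6+/CD34− progenitors, 1 of N1-AcSpd-treated progenitors, 1 of untreated α6+/CD34+ HFSCs and 1 of N1-AcSpd-treated HFSCs, making 16 libraries. RNA was measured by sequencing 3′ ends with unique molecular identifiers (UMIs), short tags that mark single molecules. No gene was altered in any group. The study's methods place the mice in telogen, the resting phase of the hair cycle, in a juvenile or a young adult window of age, without saying which mouse had which.

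Polyamines are small positively charged metabolites that bind RNA and other polyanions. SAT1 transfers an acetyl group to spermidine or spermine and makes N1-AcSpd or N1-acetylspermine. PAOX oxidises these acetylated forms back towards putrescine and spermidine, and SMOX oxidises spermine directly to spermidine, with hydrogen peroxide as a by-product of both. SAT2 is a relative of SAT1 that acts poorly on polyamines and is better known as a thialysine acetyltransferase. The added compound is therefore the product of SAT1 and a substrate of PAOX.

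The 4 genes lie on different chromosomes of the mouse assembly GRCm38 (mm10). Sat1 (ENSMUSG00000025283) spans positions 155213132 to 155216449 of chromosome X on the minus strand and has 4 exonic blocks when its transcripts are merged. Sat2 (ENSMUSG00000069835) spans positions 69622024 to 69623870 of chromosome 11 on the plus strand. Paox (ENSMUSG00000025464) spans positions 140115799 to 140137224 of chromosome 7 on the plus strand, and its first exonic bases overlap 142 exonic bases of Echs1, which runs on the opposite strand. Smox (ENSMUSG00000027333) spans positions 131491496 to 131525922 of chromosome 2 on the plus strand. The counts behind the genes set the precision of what follows. Over the 16 libraries there were 39531 UMIs for Sat1, 3604 for Paox, 3306 for Smox and 106 for Sat2.

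Sat1 was the only member that passed a test of the treatment, so the 250 bases before its start site are shown (chrX:155216450-155216699, minus strand, RefSeq sequence for GRCm38.p6). The capitals mark the GC boxes, the letters GGGCGG or their reverse complement.

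Sat1: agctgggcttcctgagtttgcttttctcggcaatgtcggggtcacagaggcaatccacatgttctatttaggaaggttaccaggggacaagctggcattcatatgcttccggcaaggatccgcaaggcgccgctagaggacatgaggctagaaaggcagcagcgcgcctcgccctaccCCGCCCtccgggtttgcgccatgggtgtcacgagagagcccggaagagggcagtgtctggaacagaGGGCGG

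GC boxes, which Sp-family factors bind, were searched on both strands together with the AP-1 letters TGANTCA, the antioxidant response core TGACNNNGC and the TATA box TATAAA. The Sat1 window held 2 GC boxes, at -72 and -6 from the start site, and no match to the other 3 motifs. Its GC content was 59.6%, against a median of 52.4% over the windows of the same length. Of 32851 such windows, 32.7% held a GC box, 6.75% the AP-1 letters, 10.2% the antioxidant response core and 12.4% the TATA box. The windows of 1 chromosome, which carries no member, were left out of these shares and of the median. The Smox window held 6 GC boxes and 1 antioxidant response core, the 2 Paox windows held 1 and 3 GC boxes, and the Sat2 window held no match. These letters are a description and say nothing of whether a factor was bound.

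Library totals ran from 15480075 to 29074855 UMIs. The sort was visible in the RNA, as Cd34 was 3.97 and 4.03 higher on the log2 scale in the HFSCs than in the progenitors of the untreated and the treated cells. The 10 epidermal differentiation markers, led by Calm4 and Sprr1a, were all lower in HFSCs in both conditions, where 16.1% of all tested genes were lower in untreated and 16.8% in treated cells. Their summed level was 1830 to 2520 CPM (UMIs scaled to a common library total) in untreated progenitors, 2220 to 3170 in treated progenitors, 447 to 505 in untreated HFSCs and 465 to 635 in treated HFSCs. Summed fibroblast markers reached at most 1.52 CPM and summed immune markers at most 7.26 CPM in any library. Summed melanocyte markers lay between 28.0 and 36.1 CPM, mostly from Mitf (group means 18.4 to 23.1 CPM) and Pmel (9.87 to 10.7 CPM). The other melanocyte markers, Mlana, Tyr, Dct and Tyrp1, each averaged at most 0.556 CPM in any group. Pecam1, listed as an endothelial marker, averaged 1760 to 1990 CPM in the 4 groups, while Kdr, the other endothelial marker measured, had 18 UMIs in all. Whether the UMIs counted for Pecam1 came from that gene was not tested. Every library had a low Xist level (at most 0.142 CPM) beside Y-linked transcripts, so X-linked Sat1 was not compared between sexes. In bulk libraries of this kind, fewer cells of a type and less RNA per cell cannot be told apart.

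Sat1, the acetyltransferase that makes N1-AcSpd, was lower in α6+/CD34+ HFSCs than in α6+/CD34− progenitors and higher after N1-AcSpd. In untreated progenitors its level in mice 1 to 4 was 123, 101, 123 and 102 CPM (112 ± 12.3, mean ± SD, n = 4). In treated progenitors it was 209, 149, 169 and 156 CPM (171 ± 26.9). These ranges did not overlap, and mouse 1 stood highest after treatment.

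In the HFSCs the levels of Sat1 were lower throughout. The untreated HFSCs of mice 1 to 4 held 73.8, 66.5, 75.4 and 59.2 CPM (68.7 ± 7.43, n = 4), and the treated HFSCs 105, 83.3, 103 and 84.7 CPM (94.0 ± 11.6, n = 4). Here, too, every treated library lay above every untreated library. In order of level, treated progenitors came first, then untreated progenitors, treated HFSCs and untreated HFSCs. Among neighbours in this order, only untreated progenitors and treated HFSCs overlapped, with the highest treated HFSC library at 105 CPM and the lowest untreated progenitor library at 101 CPM.

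**Figure D1:**
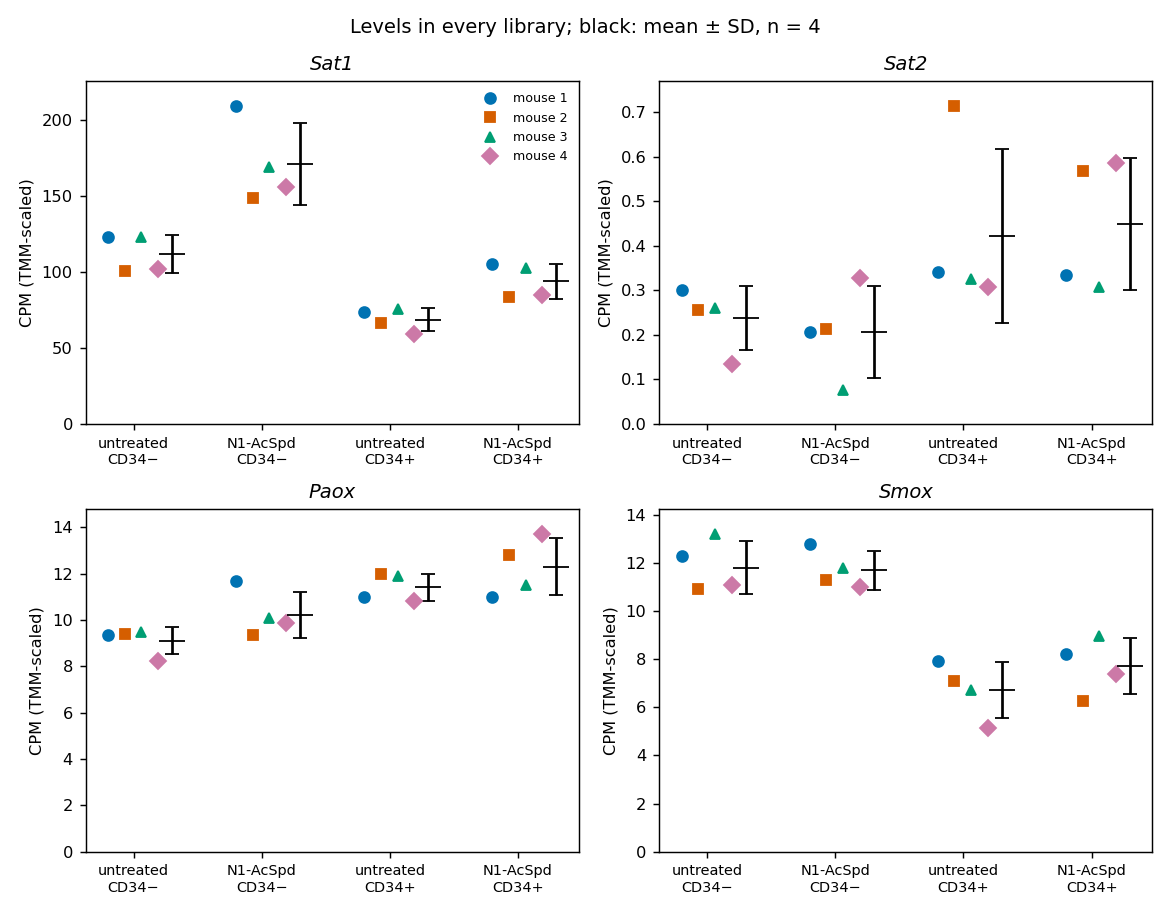
Levels of Sat1, Sat2, Paox and Smox in each of the 16 libraries, in CPM after TMM scaling, each panel with its own axis from 0. Coloured symbols are mice 1 to 4, and black bars give the mean ± SD over the 4 libraries of a group. Sat1 and Smox sit lower in both CD34+ groups, Sat1 alone shows treated libraries apart from untreated libraries in both cell types, and Sat2 stays under 1 CPM.

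Between cell types, Sat1 fell by 0.71 on the log2 scale from progenitors to HFSCs in untreated cells (SE 0.12, edgeR quasi-likelihood test, adjusted p = 0.000547), which makes its level 1.64-fold higher in progenitors. In N1-AcSpd-treated cells it fell by 0.86 (SE 0.12, adjusted p = 0.0001), or 1.82-fold. The decrease was seen in 4 of 4 mice in each condition. Adjusted p-values here were corrected over all tested genes by the Benjamini-Hochberg method, and a gene passed when its adjusted p was under 0.05. In untreated cells 32.1% of all tested genes passed and in treated cells 33.3%, so that a difference between the cell types was common among genes.

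After N1-AcSpd, Sat1 in progenitors rose 1.52-fold (log2 0.60, SE 0.12, edgeR adjusted p = 0.0456), and the increase was seen in 4 of 4 mice, by 0.77, 0.56, 0.46 and 0.61 on the log2 scale for mice 1 to 4. This comparison had few passing genes, 0.614% of those tested, and Sat1 was 1 of them. The call sat at the threshold. Leaving out 1 library at a time ended it for 15 of 16 libraries (adjusted p = 0.0515 to 0.108, log2 0.49 to 0.66), the exception being the treated HFSC library of mouse 3 (0.0448). Leaving out 1 mouse ended it in 4 of 4 cases (adjusted p = 0.163 to 0.185). With the mouse as a block, which removes differences between animals that all groups share, the log2 fold change was again 0.60 with an SE of 0.054 (edgeR adjusted p = 0.00157), and 351 genes passed in place of 117. The call under the block was lost without mouse 2 (adjusted p = 0.0519).

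In HFSCs the fitted increase of Sat1 was 1.37-fold (log2 0.45, SE 0.12), which did not pass (edgeR adjusted p = 0.144). The mice gave log2 differences of 0.51, 0.33, 0.45 and 0.52, all of 1 sign. Of all tested genes, 0.325% passed in HFSCs. With the mouse as a block Sat1 passed (log2 0.45, SE 0.054, edgeR adjusted p = 0.00796), and 152 genes passed in place of 62. Under the block the call was lost whichever mouse was left out (adjusted p = 0.0671 without mouse 2, 0.0895 without mouse 3, 0.067 without mouse 4 and 0.0966 without mouse 1). DESeq2 also placed it past the threshold (adjusted p = 0.00805), with 431 genes passing.

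A difference between these treatment effects was not detected for Sat1. The interaction, the effect in HFSCs minus the effect in progenitors, was -0.15 on the log2 scale with a 95% interval of -0.52 to 0.22 (edgeR adjusted p = 1.0). For this comparison 0% of tested genes passed in edgeR, where 799 (4.19%) had an unadjusted p under 0.05, and 71 passed in DESeq2. Averaged over both cell types, the treatment raised Sat1 1.44-fold (log2 0.53, SE 0.086, edgeR adjusted p = 0.00559), where 4.87% of tested genes passed. That call was kept when any library (adjusted p = 0.00661 to 0.0129) or any mouse (0.0402 to 0.0441) was left out. Differentiation markers moved beside it. Of the 10 markers, Ivl, a cornified envelope protein, rose by 0.60 (SE 0.096, edgeR adjusted p = 0.00505) and Sbsn by 0.25 (SE 0.06, adjusted p = 0.0346) over both cell types, where 2.7% of all tested genes rose, the other 8 did not pass, and the median of all 10 was 0.252 against -0.008 over all tested genes. Of 7 HFSC markers, 3 passed as lower over both cell types and 0 as higher, where 2.17% of all tested genes fell. They were Postn, down by 0.53 (SE 0.11, edgeR adjusted p = 0.0204), Krt15 by 0.37 (SE 0.096, adjusted p = 0.0449) and Nfatc1 by 0.20 (SE 0.05, adjusted p = 0.0365). The other 4 did not pass, with Lhx2 at 0.36 (SE 0.14), Sox9 at -0.21 (SE 0.1), Tcf7l1 at -0.19 (SE 0.21) and Lgr5 at -0.49 (SE 0.6). The median of the 7 was -0.213, against -0.008 over all tested genes. The summed level of the 7 was 81.8 to 91.2 CPM in untreated and 62.3 to 75.8 CPM in treated progenitors. In HFSCs it was 432 to 584 CPM untreated and 333 to 513 CPM treated. Among the 7, Lgr5 ran from 0 to 5.45 CPM in treated progenitors and from 3.79 to 5.5 CPM in untreated progenitors. The part of either kind of marker-bearing cell in the Sat1 result was not tested.

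**Figure D2:**
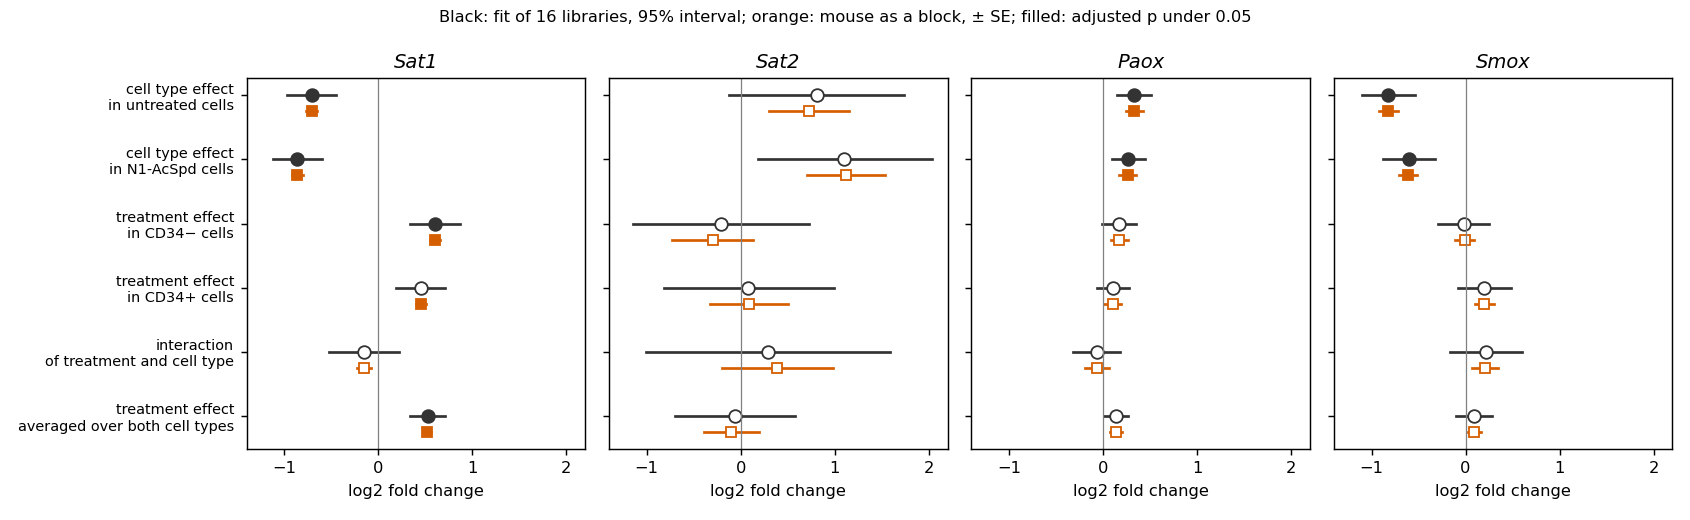
Log2 fold changes of the 4 genes in the 6 comparisons, with 1 panel per gene and a shared axis. Black circles are the fit of 16 libraries with 95% intervals, orange squares the same fit with the mouse as a block and bars of ± SE, and filled symbols mark an adjusted p under 0.05. For Sat1 the block leaves the value in HFSCs at 0.45 and narrows its error from 0.12 to 0.054, whereas the intervals of Sat2 are the widest of the 4 genes.

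Sat1 also differed between animals. Mice 1 and 3 held the highest 2 levels in all 4 groups, a pattern noticed after the values were seen. Of all tested genes, 0.74% had mice 1 and 3 highest in all 4 groups, and 2.61% had the same 2 mice highest, whichever they were. The labels give these animals identifiers of another letter series than mice 2 and 4 without saying what the letters stand for, and whether anything else separated the pairs was not tested. Smox had mice 1 and 3 highest in 3 groups and mice 1 and 2 in the untreated HFSCs.

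**Figure D3:**
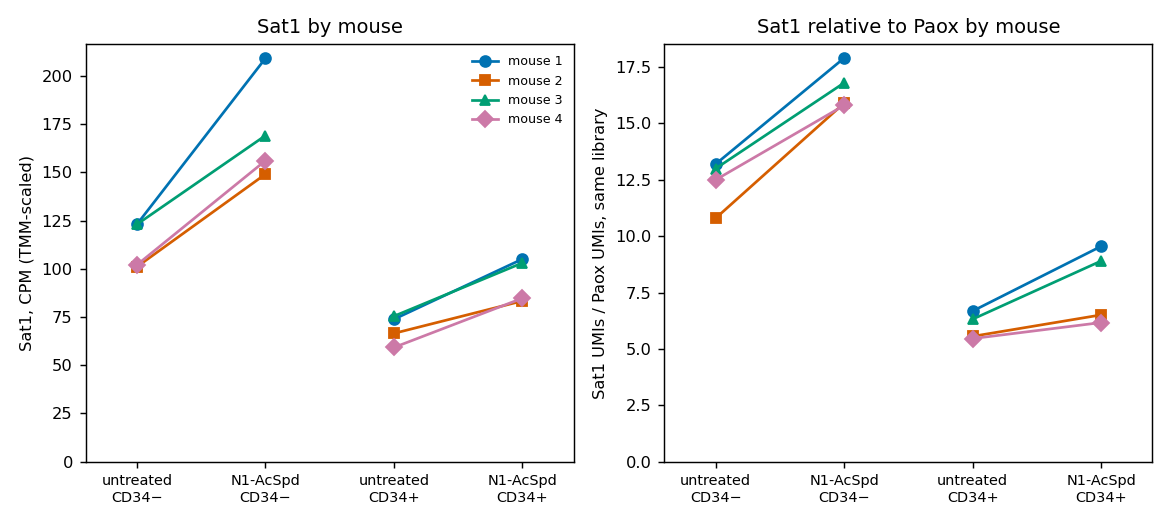
Sat1 level in CPM (left) and Sat1 UMIs divided by Paox UMIs of the same library (right), with the libraries of a mouse joined within a cell type. Every line rises from untreated to N1-AcSpd-treated cells in both panels, from 101 to 123 CPM up to 149 to 209 CPM in progenitors and from 59.2 to 75.4 CPM up to 83.3 to 105 CPM in HFSCs.

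Sat2, the relative of Sat1, was close to the limit of detection. The progenitor libraries of mice 1 to 4 held 7, 4, 6 and 3 UMIs untreated and 5, 6, 2 and 8 UMIs treated. The HFSC libraries held 6, 13, 6 and 6 UMIs untreated and 9, 10, 5 and 10 UMIs treated. Scaled to library size, the group means were 0.238 ± 0.0714 and 0.206 ± 0.103 CPM in untreated and treated progenitors, and 0.422 ± 0.195 and 0.449 ± 0.149 CPM in untreated and treated HFSCs (n = 4 each).

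Sat2 was above progenitors in the HFSCs of 4 of 4 mice in each condition, but the difference did not pass in untreated cells (log2 0.81, SE 0.43, edgeR adjusted p = 0.18) or in treated cells (log2 1.10, SE 0.43, adjusted p = 0.0642). The second of these passed without the treated progenitor library of mouse 4 (0.0344) or the untreated HFSC library of mouse 2 (0.0477). The untreated ranges did not overlap (at most 0.301 CPM in progenitors and at least 0.308 CPM in HFSCs), while the treated ranges did. After N1-AcSpd the log2 fold change was -0.21 in progenitors (95% interval -1.15 to 0.73) and 0.08 in HFSCs (95% interval -0.82 to 0.99), so changes of either sign were not detectable at this depth.

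Paox, the oxidase that acts on acetylated polyamines, was slightly higher in HFSCs. In untreated progenitors the levels of mice 1 to 4 were 9.33, 9.39, 9.49 and 8.21 CPM (9.11 ± 0.599, n = 4), and in untreated HFSCs 11.0, 12.0, 11.9 and 10.8 CPM (11.4 ± 0.584, n = 4). All untreated HFSC libraries lay above all untreated progenitor libraries. The increase was 1.26-fold (log2 0.33, SE 0.082, edgeR adjusted p = 0.00686) and was seen in 4 of 4 mice.

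In treated progenitors Paox stood at 11.7, 9.37, 10.1 and 9.85 CPM (10.2 ± 1.0, n = 4) and in treated HFSCs at 11.0, 12.8, 11.5 and 13.7 CPM (12.3 ± 1.23, n = 4). These ranges overlapped because mouse 1 was higher in its progenitors than in its HFSCs. The fitted difference was 1.20-fold (log2 0.26, SE 0.081, edgeR adjusted p = 0.0235), with 3 of 4 mice in its direction. The call was lost without the treated progenitor library of mouse 2 (adjusted p = 0.0733), mouse 3 (0.0546) or mouse 4 (0.0615), or without the treated HFSC library of mouse 4 (0.0791). It was lost, too, when only the treated libraries were fitted (adjusted p = 0.06). Leaving out 1 mouse ended it for 3 of 4 mice (adjusted p = 0.0783 to 0.187), and with the mouse as a block it was kept only without mouse 1 when a mouse was left out.

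Paox, which can use the added compound as a substrate, did not pass a test of the treatment. The log2 fold change after N1-AcSpd was 0.17 in progenitors (95% interval -0.01 to 0.35, edgeR adjusted p = 0.385) and 0.10 in HFSCs (95% interval -0.07 to 0.28, adjusted p = 0.681). Over both cell types it was 0.14 (95% interval 0.01 to 0.26, adjusted p = 0.195). In order of level, treated HFSCs came first, then untreated HFSCs, treated progenitors and untreated progenitors, and each neighbouring pair overlapped in range. Echs1, the mitochondrial enzyme gene that shares exonic bases with Paox, was higher in HFSCs by 0.31 in untreated cells (SE 0.063, edgeR adjusted p = 0.00171) and by 0.35 in treated cells (SE 0.063, adjusted p = 0.000694). The shared bases lie at the 5′ end of both genes, whereas the libraries were made from 3′ ends. No library had the same count for both genes. The use of strand in counting is not given in the sources used here, so reads from the shared bases, if any, cannot be told apart. How many reads fell there was not tested.

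Smox, the spermine oxidase, was lower in HFSCs in both conditions. Untreated progenitors of mice 1 to 4 held 12.3, 10.9, 13.2 and 11.1 CPM (11.8 ± 1.1, n = 4), and untreated HFSCs 7.91, 7.08, 6.72 and 5.14 CPM (6.71 ± 1.16, n = 4). Treated progenitors held 12.8, 11.3, 11.8 and 11.0 CPM (11.7 ± 0.804, n = 4), and treated HFSCs 8.21, 6.26, 8.96 and 7.40 CPM (7.71 ± 1.16, n = 4). Progenitor and HFSC libraries did not overlap in either condition. Smox fell by 0.82 on the log2 scale from progenitors to HFSCs in untreated cells (SE 0.13, edgeR adjusted p = 0.000261; 1.77-fold) and by 0.60 in treated cells (SE 0.13, adjusted p = 0.00208; 1.52-fold), in 4 of 4 mice each.

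The treatment did not separate the Smox libraries. The log2 fold change was -0.02 in progenitors (95% interval -0.29 to 0.25, edgeR adjusted p = 0.999) and 0.20 in HFSCs (95% interval -0.08 to 0.48, adjusted p = 0.56). The interaction was 0.22 (95% interval -0.17 to 0.60, adjusted p = 1.0). By level, both progenitor groups stood above both HFSC groups, and within each cell type the treated and untreated ranges overlapped.

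Set side by side, 3 of the 4 genes passed the test between cell types in untreated cells, and the same 3 in treated cells, with Sat1 and Smox lower in HFSCs and Paox higher, against 32.1% and 33.3% of all tested genes. For the treatment 1 of 4 passed in progenitors (0.614% of all tested genes), 0 of 4 in HFSCs (0.325%), 0 of 4 for the interaction (0%) and 1 of 4 over both cell types (4.87%), and the gene that passed was Sat1. In HFSCs Sat1 passed with the mouse as a block and in DESeq2. The number of Sat1 UMIs per Paox UMI in the same library, which needs no scaling of library size, was 12.3 ± 1.1 in untreated progenitors, 16.6 ± 0.965 in treated progenitors, 6.01 ± 0.592 in untreated HFSCs and 7.78 ± 1.69 in treated HFSCs (n = 4 each). In HFSCs the ratio stood at 6.68 and 6.32 untreated and 9.55 and 8.90 treated in mice 1 and 3, against 5.56 and 5.46 untreated and 6.51 and 6.17 treated in mice 2 and 4. The ratios of the cell types did not overlap in either condition. They were not tested.

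Genes with the most alike patterns were sought as those with the smallest root mean square difference of log2(CPM + 1) from each member, after centring, over the 16 libraries and about 9718 well-counted genes. For Sat1 these were Alas1, the rate-limiting enzyme of haem synthesis (difference 0.160, against a spread of Sat1 itself of 0.493), Ralb, a small GTPase (0.175), and Xaf1 (0.191). For Smox they were Zc3h12a, an RNase of inflammatory transcripts (0.118, own spread 0.362), Map4 (0.126) and Plk4 (0.126). For Paox they were Mthfs (0.087, own spread 0.175), Hsd17b10 (0.088) and Hpf1 (0.095). The list for Sat2, namely Asb8 (0.083), Cd320 (0.090) and Fam149b (0.091), was drawn for a gene under 1 CPM, with 106 UMIs in all and a spread of 0.168 on this scale. Alas1 was lower in HFSCs by 0.78 in untreated and 0.84 in treated cells on the log2 scale.

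A pair of further genes, for proteins that act on acetylated polyamines or on SAT1 itself, had enough counts to test. Hdac10, a deacetylase of N8-acetylspermidine, was higher in untreated HFSCs (log2 0.47, SE 0.15, edgeR adjusted p = 0.0244) and did not pass in treated cells (0.02, SE 0.15, adjusted p = 0.992). Its interaction of treatment and cell type was -0.46 (SE 0.21) and did not pass, so a difference between the conditions was not detected. Pmf1, a cofactor in SAT1 transcription, was higher in HFSCs of both conditions (log2 0.29, SE 0.087, adjusted p = 0.0203 untreated; 0.36, SE 0.087, adjusted p = 0.00517 treated). Of all tested genes, 16.1% were higher in untreated and 16.5% in treated HFSCs. Neither Hdac10 nor Pmf1 passed a test of the treatment. The share of all tested genes that did was 0.614% in progenitors, 0.325% in HFSCs and 4.87% over both cell types. Satl1, a SAT1-like gene, had 2 UMIs in all.

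Among polyamine synthesis genes, those that passed between cell types were lower in HFSCs, as Sat1 and Smox were. Of 7 tested, 4 were lower in HFSCs and 0 higher in each condition, with a median log2 fold change of -0.259 in untreated and -0.271 in treated cells, against 0.022 and -0.007 over all tested genes, of which 16.1% and 16.8% were lower. Arginase gene Arg1, which makes ornithine, had the largest fitted change (log2 -3.63, SE 0.72, edgeR adjusted p = 0.00164 untreated; -2.21, SE 0.61, adjusted p = 0.0122 treated) on 94 UMIs in all. The S-adenosylmethionine decarboxylase gene Amd1 fell after N1-AcSpd, by 0.31 in progenitors (SE 0.062, adjusted p = 0.0421) and by 0.29 over both cell types (SE 0.044, adjusted p = 0.00396). The second gene that passed there was its near-identical copy Amd2, and reads of the pair may be split between them. Of all tested genes, 0.241% were lower in progenitors and 2.17% over both cell types. The 2 of 7 that passed here are not independent, as Amd1 and Amd2 had nearly equal counts (22335 and 22400 UMIs). Their mean levels were also close, at 73.7 and 73.6 CPM in untreated and 59.4 and 59.9 CPM in treated progenitors. In HFSCs 0 of 7 passed, where 0.325% of all tested genes did. Amd1 and Amd2 stood at -0.27 (SE 0.062) and -0.25 (SE 0.059) there (edgeR adjusted p = 0.093 and 0.104). Their interactions of treatment and cell type, 0.04 (SE 0.087) and 0.05 (SE 0.084), did not pass.

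Antizymes restrain ornithine decarboxylase and polyamine uptake, and antizyme inhibitors block them. Of 4 such genes tested, 3 were higher in untreated HFSCs, and 2 were higher and 1 lower in treated HFSCs (medians 0.319 and 0.143), where 16.1% and 16.5% of all tested genes were higher and 16.8% lower in treated cells. The 3 were the antizyme genes Oaz1 and Oaz2 and the inhibitor gene Azin2. In treated HFSCs Oaz1 and Oaz2 were higher and the inhibitor gene Azin1 lower. Oaz2 had the largest change in both conditions, 0.61 (SE 0.07, edgeR adjusted p = 1.75e-05) and 0.60 (SE 0.07, adjusted p = 1.92e-05). After treatment 0 of 4 passed in either cell type, where 0.614% of all tested genes passed in progenitors and 0.325% in HFSCs. Over both cell types the antizyme inhibitor gene Azin1 fell by 0.29 (SE 0.05, edgeR adjusted p = 0.00712), as 2.17% of all tested genes did.

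Of 7 tested genes of polyamine or precursor transport, 2 were higher and 3 lower in untreated HFSCs, and 2 higher and 2 lower in treated HFSCs (medians -0.281 and -0.094). The share of all tested genes that passed was 32.1% and 33.3%. Atp13a4, of an ATPase family with known polyamine transporters, changed most, by -2.58 (SE 0.34, edgeR adjusted p = 6.32e-05) and -1.70 (SE 0.31, adjusted p = 0.000826). None of the 7 passed a treatment test in edgeR. Of all tested genes, 0.614% passed in progenitors, 0.325% in HFSCs and 4.87% over both cell types.

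Hypusination, the modification of eIF5A that consumes spermidine, is carried by 4 genes, all tested. In untreated HFSCs 2 were lower and 0 higher, led by the hydroxylase gene Dohh (log2 -0.37, SE 0.072, edgeR adjusted p = 0.00153). In treated HFSCs 2 were lower and 1 higher, Eif5a2 (log2 0.76, SE 0.23, adjusted p = 0.0237). The medians were -0.18 and -0.049, and 32.1% and 33.3% of all tested genes passed. After treatment Eif5a itself rose by 0.09 over both cell types (SE 0.023, adjusted p = 0.0447), as 2.7% of all tested genes did.

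The 13 genes that remove hydrogen peroxide, the by-product of PAOX and SMOX, split between directions. In untreated HFSCs 5 were higher and 3 lower, and in treated HFSCs 4 were higher and 3 lower (medians 0.011 and -0.059), against 32.1% and 33.3% of all tested genes passing in either direction. The glutathione peroxidase gene Gpx2 led both, at 1.33 (SE 0.08, edgeR adjusted p = 1.93e-07) and 1.75 (SE 0.08, adjusted p = 1.18e-08). After N1-AcSpd 0 of 13 passed in progenitors, where 0.614% of all tested genes passed. In HFSCs 2 rose, Gpx2 by 0.58 (SE 0.078, edgeR adjusted p = 0.00728) and Prdx1 by 0.18 (SE 0.032), where 0.189% of all tested genes rose. The values in progenitors were 0.16 (SE 0.078) for Gpx2 and 0.12 (SE 0.032) for Prdx1. Their interactions of treatment and cell type, 0.43 (SE 0.11) and 0.06 (SE 0.046), did not pass. Over both cell types 3 rose and 0 fell, where 2.7% of all tested genes rose (Gpx2, log2 0.37, SE 0.055, adjusted p = 0.00387), with a median of 0.06 against -0.008 over all tested genes.

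**Figure D4:**
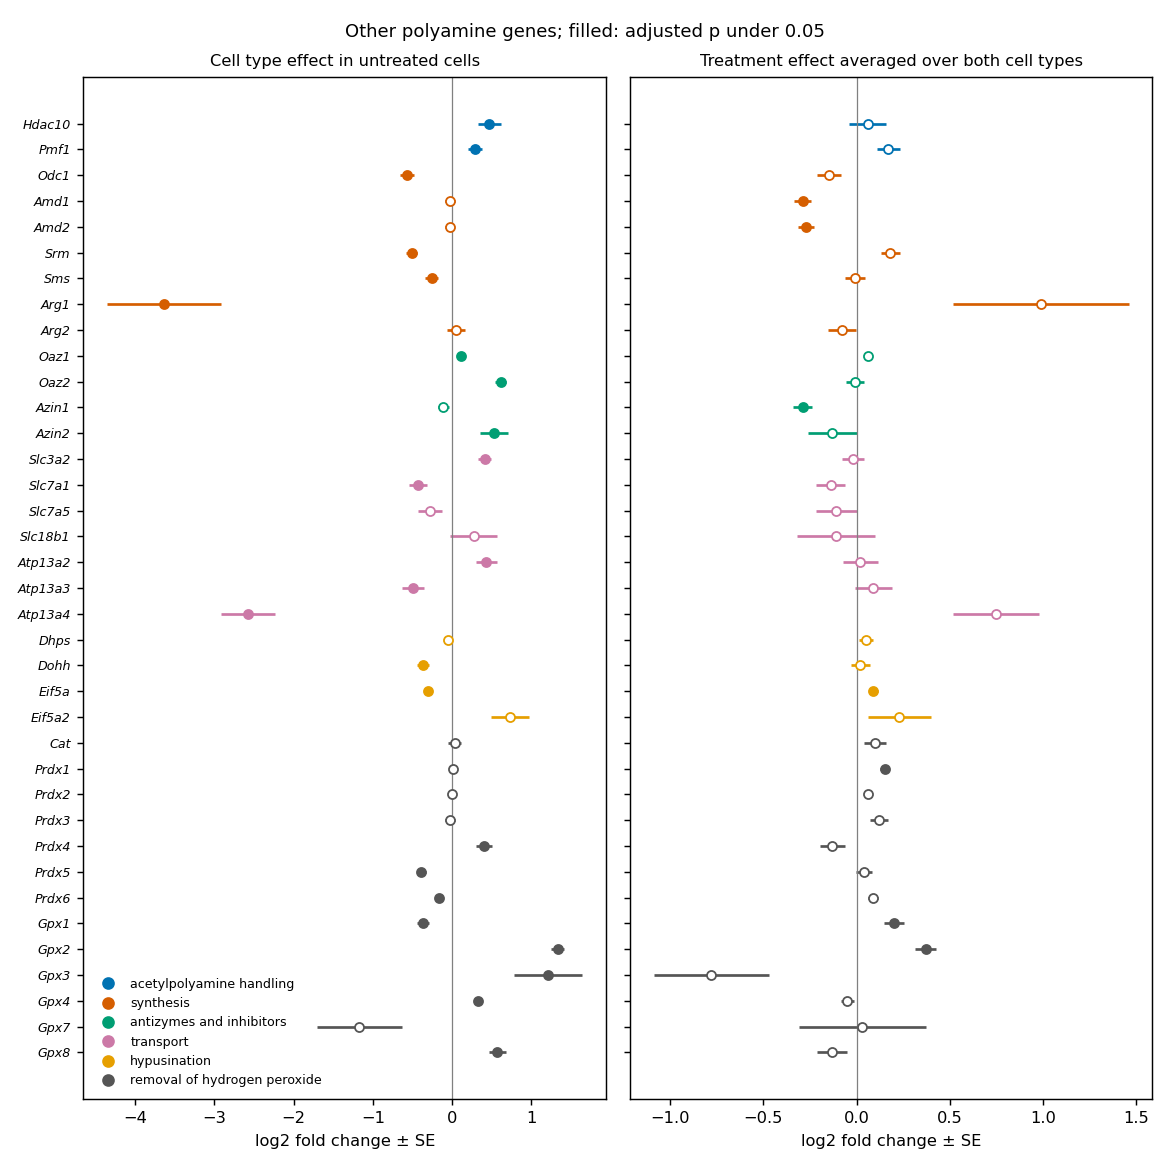
Log2 fold changes ± SE of the other tested polyamine genes by list, for HFSCs against progenitors in untreated cells (left) and for N1-AcSpd against untreated over both cell types (right), with different axis ranges. Filled symbols mark an adjusted p under 0.05. On the left, 4 synthesis genes are filled below 0 and 3 antizyme or inhibitor genes are filled above it, and on the right Amd1, Amd2 and Azin1 are filled below 0.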

How the data were processed

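The 4 genes, the gene lists and the motifs were chosen with earlier results of these data known. A value is the number of different UMIs that the authors found for a gene in a library. It rests on pseudoalignment of 1 read of each pair to mm10 (Kallisto) and on overlap with genes (BEDTools), after sample barcodes had been separated with FLEXBAR. The submitters' processing notes name FastQC 0.11.7, kallisto 0.45.0, bedtools and DESeq2. The deposited values are these raw counts, and the 156050 empty cells were read as 0. Positions and symbols came from GENCODE M21, which lacked 62 identifiers. Groups and mice came from the labels, in which a replicate number is 1 animal in all 4 groups.

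A mean count of 5 or more was required of a gene. The remaining genes were fitted in edgeR (version 4.0.16, R 4.3.3) with TMM scaling, quasi-likelihood tests, all 16 libraries and 1 mean per group. DESeq2 (1.42.0), the study's tool, was run as an alternative. The SE is the absolute log2 fold change over the square root of F. CPM values use TMM-scaled totals. Precision from counting follows from totals of 15480075 to 29074855 UMIs and covers counting error only. No pair of libraries within a group was alike within sampling noise (lowest chi-square per degree of freedom 26 over 24 pairs).

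The pairing comes from the labels' mouse entry. Deviations from group means correlated at a mean r of 0.0344 between libraries of the same mouse (24 pairs, range -0.118 to 0.162, across 12444 genes) and -0.0114 between different mice (72 pairs). The fit without the block treats libraries of 1 mouse as independent. Members are always named. In the pathway lists the passing gene of the largest change per list and comparison is named, the acetylpolyamine list whole, and for each member the 3 genes of most alike pattern among those with a mean count of at least 50. Sbsn, Ivl, Postn, Krt15, Nfatc1, Lhx2, Sox9, Tcf7l1, Lgr5, Prdx1, Amd2, Echs1, Calm4, Sprr1a, Pecam1 and Kdr were named after their values were seen. So were Mitf, Pmel, Mlana, Tyr, Dct, Tyrp1, Oaz1 and Azin2. Alternatives were other scalings and filters, DESeq2, counts thinned to the smallest library, fits of the compared groups alone, the block, and leaving out libraries or mice (the last together with the block was added after seeing the data).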

Additional observations from a re-analysis of the deposited data

Results flagged for a closer look

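Over 16 sets of 4 libraries (4 genes in 4 groups), 2 sets held a library far from the other 3. Sat2 in untreated HFSCs of mouse 2 stood at 0.713 CPM, where the gap to the next library was 0.919 of the group's range. Paox in untreated progenitors of mouse 4 stood at 8.21 CPM, with a gap of 0.875 of the range. Chance alone marks about 1 in 20 such sets. The Sat2 value rests on 13 UMIs, and without that library the log2 difference between the cell types in untreated cells was 0.44 in place of 0.81.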

How the results depend on the processing

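Of 24 values (4 genes in 6 comparisons), 168 of 178 alternatives other than left-out libraries kept direction and side of the threshold. The increase of Sat1 in progenitors did not pass with no filter on low counts (log2 0.60, adjusted p = 0.0863), with counts thinned to the smallest library (0.61, 0.0525) or with the compared groups alone (0.60, 0.12), and passed in the other 5 settings. The mouse as a replicate block (log2 0.45) and DESeq2 (0.47) brought Sat1 in HFSCs past the threshold, and the block changed no other call of the 4 genes. Paox in treated cells did not pass with the compared groups alone (0.28), and Sat2 in treated cells passed with library totals in place of TMM (1.22, adjusted p = 0.0398). Library totals moved the median of all genes to 0.137 and 0.109 in the cell type comparisons, where Sat1 stood at -0.59 and -0.74, Paox at 0.44 and 0.38 and Smox at -0.71 and -0.49. Thinning turned the sign of Sat2 after treatment in HFSCs (-0.12) and of the interactions of Sat2 (-0.11) and Paox (0.04), none of which passed in any setting. The cause was not tested. Sat2 is absent from the fit with edgeR's own filter.

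With libraries or mice left out, with and without the block, the log2 fold change of Sat1 in treated progenitors ranged from 0.49 to 0.66. Paox between cell types ranged from 0.28 to 0.36 in untreated and from 0.18 to 0.38 in treated cells, and Sat2 in treated cells from 0.83 to 1.41. With the block and 1 mouse left out, Sat1 passed in 3 of 4 cases in progenitors and in 0 of 4 in HFSCs (adjusted p = 0.067 to 0.0966). Paox passed in 1 of 4 in treated cells (not without mouse 2, 3 or 4, adjusted p = 0.112 to 0.235) and in 2 of 4 in untreated cells (not without mouse 2, 0.0703, or mouse 3, 0.0719). Sat2 in treated cells passed in 1 of 4. Values near 0 changed sign. These were Sat2 in progenitors (-0.80 to 0.12), in HFSCs (-0.19 to 0.46) and over both (-0.49 to 0.13), Smox in progenitors (-0.06 to 0.04) and the interaction of Paox (-0.13 to 0.02).

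The number of genes passing the treatment tests depended on the setting, from 0 to 558 in progenitors (117 as reported), 3 to 431 in HFSCs (62), 0 to 71 for the interaction (0) and 445 to 1551 over both (928). With libraries left out these were 4 to 161, 3 to 85, 0 to 11 and 167 to 1070. For Sat2, 106 UMIs limit what can be seen.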
